A study of Mus musculus with 20 samples.

Results

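Both cell types compared here carried the same CRISPR activation machinery and an sgRNA against *Bcl2*, so the comparison sets a malignant B lineage cell beside an embryonic fibroblast after the same survival gene had been targeted. The members are 10 of the 20 RNA-seq libraries of the series, taken by their labels: 6 lymphoma cell lines and 4 mouse embryonic fibroblast (MEF) libraries with sgRNAs for *Bcl2*. The lymphoma lines had been derived from tumours of irradiated mice that received Eµ-*Myc*/*dCas9a-SAM* KI/+ fetal liver stem and progenitor cells transduced with sg*Bcl-2*. The labels call 4 of these lines IgM-positive and 2 IgM-negative, and they are named lymphoma lines 1 to 4 and 5 to 6. The 4 MEF libraries came from *dCas9a-SAM* KI/+ embryos, with 2 libraries from each of 2 MEF lines, and carried no *Myc* transgene. Nothing in the labels says whether the libraries of a MEF line came from separate cultures or from different sgRNAs, so p-values measure the spread among these libraries. In dCas9a-SAM a Cas9 without nuclease activity brings transcriptional activators to the site that an sgRNA matches. The Eµ-*Myc* transgene is driven by the immunoglobulin heavy chain enhancer and is active in the B lineage. The MEFs grew in DMEM with serum and the lines in FMA medium, which is DMEM with serum and further supplements. Lineage, the *Myc* transgene, transformation, the culture medium and culture history thus cannot be told apart in this comparison.

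Fibroblasts are adherent mesenchymal cells that secrete collagen and other matrix proteins, hold on to that matrix through integrins and sense its stiffness through SRF and YAP. B lymphocytes arise from blood stem cells, assemble immunoglobulin genes and signal through the B cell receptor. MYC raises the transcription of genes for ribosome assembly, nucleotide synthesis and entry into the cell cycle, and lymphomas of Eµ-*Myc* mice grow fast in suspension. BCL-2, the product of *Bcl2*, keeps cells alive by binding pro-apoptotic relatives.

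Between 20083235 and 26678417 reads per library were counted on genes. The values are deposited CPM, read counts scaled to 1e+06 reads per library, which give a share of a library's RNA and not an amount per cell. Genes on X and Y were left out, and 13964 genes passed the expression filter. On the scale of log2(CPM + 0.1) after TMM scaling, 11360 genes differed between the groups at an adjusted p-value under 0.05 by limma, which is 81.4% of those tested. Of these, 5094 genes (36.5% of those tested) were higher and 6266 (44.9%) were lower in the lymphoma lines. A change of at least 4-fold was reached by 1469 genes that were higher (10.5%) and by 4038 that were lower (28.9%). The values of the groups did not overlap for 10518 genes (75.3%). With most genes past the threshold, a single call says little, and the lists below are given with their counts in each direction, the size of change and the median of all tested genes, which was -0.26. Scaling moved that median to -0.09 without a factor and to -0.45 with RLE factors, so changes of that size depend on the scaling. In bulk RNA such as this, fewer cells that make a gene and less RNA per cell cannot be told apart.

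More genes were confined to the fibroblasts than to the lines. In total 713 genes (5.11%) had at least 10 CPM in every MEF library and at most 0.5 CPM in every lymphoma line, while 88 genes (0.63%) showed the opposite. This rule leaves out genes made by only some of the 6 lines, which differ more than the 4 libraries of 2 MEF lines. The numbers thus depend in part on the make-up of the groups. Lymphoma lines had fewer genes at 1 CPM or more, between 9960 and 10708 against between 12416 and 12619 in the MEFs, a difference of -2130 on average (exact permutation test, two-sided, adjusted p = 0.00714, n = 6 and 4). Mitochondrial genes made up 5.30% to 7.18% of a line's reads and 2.52% to 2.90% of a MEF library's (exact permutation test, two-sided, adjusted p = 0.00714, n = 6 and 4). The 50 most abundant genes of a library took between 13.2% and 16.9% of the reads in the lines and between 13.2% and 13.8% in the MEFs, with overlap. This difference of 2.11 percentage points had an adjusted p of 0.0333 in the exact permutation test and lost its call without line 1 or 3 or any MEF library (differences between 1.99 and 2.19). The lines also spread further. Over 7007 genes at 10 CPM or more in both groups, the median SD on the log2 scale was 0.256 among the 6 lines and 0.0884 among the 4 MEF libraries. Pearson's r over these genes lay between 0.829 and 0.930 for pairs of lines, between 0.989 and 0.997 for pairs of MEF libraries and between 0.436 and 0.534 for a line and a MEF library. Genes are not independent and the MEF libraries share 2 lines, so these values are a description only.

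The labels held against the markers of each cell type. Of 12 B lineage markers, 11 were at 1 CPM or more in every line, and their summed level was between 2128 and 3552 CPM in the lines and between 19.7 and 22.98 CPM in the MEFs, where *Ebf1* alone passed 1 CPM. All 12 fibroblast markers were at 1 CPM or more in every MEF library, with sums between 13223 and 17302 CPM against between 3.83 and 56.1 CPM in the lines. Genes confined to a single group at these levels left a trace in the other. The 88 line genes summed to between 0.0875% and 0.169% of their level in the lines, highest in MEF library 3, and the 713 MEF genes to between 0.0473% and 0.0901% of their level in the MEFs, highest in line 2. Markers of muscle summed to between 63.7 and 89.0 CPM in the MEFs and at most 4.22 CPM in the lines, and those of plasma cells to between 70.9 and 383 CPM in the lines and between 188 and 222 CPM in the MEFs. T cell markers summed to between 15.7 and 84.8 CPM in the lines, where only *Lck* and *Zap70* of 8 reached 1 CPM, and endothelial markers to between 2.89 and 43.1 CPM. Macrophage, erythroid and epithelial markers stayed at or under 16.1 CPM in both groups. Whether the traces of the 88 and 713 genes came from the cells or from other libraries was not tested, and fold changes of such genes rest on a few reads in the low group and on the 0.1 CPM that was added.

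The targeted gene was measured first. The study designed 3 sgRNAs of 20 bases for *Bcl2*, and the labels do not say which was used in a library. All of them match the promoter window in the RefSeq promoter table (GRCm38.p6), which runs from 250 bases before to 50 after the start of transcription, on the strand of the gene. The window is shown 5′ to 3′ with the 3 sgRNA sites in capitals, because these are the sites designed for the activation of *Bcl2*.
sgRNA1: GCGGGCGGGCGCTCAGAGGA
sgRNA2: CAGGAAACCAGGCGCTCCGG
sgRNA3: GGAGAATGAAGTAAGAGGCC
Bcl2 promoter, chr1:106714241-106714540, minus strand: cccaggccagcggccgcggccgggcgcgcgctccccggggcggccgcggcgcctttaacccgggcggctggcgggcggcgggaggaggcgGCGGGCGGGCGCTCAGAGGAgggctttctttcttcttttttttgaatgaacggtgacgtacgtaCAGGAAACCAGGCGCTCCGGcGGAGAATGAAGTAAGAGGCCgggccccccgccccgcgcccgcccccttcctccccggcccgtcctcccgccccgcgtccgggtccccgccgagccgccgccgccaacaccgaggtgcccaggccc
The site of sgRNA1 begins 160 bases before the start, that of sgRNA2 96 bases and that of sgRNA3 75 bases before it, and a single base separates sgRNA2 and sgRNA3. The 3 bases after the sites read GGG, CGG and GGG, which is the NGG motif that Cas9 needs.

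*Bcl2* (Entrez gene 12043, chromosome 1 from 106538176 to 106714290 in GRCm38.p6, the build of all positions given here) had 148, 163, 112, 165, 138.1 and 99.4 CPM in lymphoma lines 1 to 6 and 67.9, 48.6, 46.8 and 71.8 CPM in the 4 MEF libraries. All lines lay above all MEF libraries, and the log2 fold change was 1.05 (SE 0.18, adjusted p = 0.000236), about 2.34-fold in CPM. The MEF groups without this guide were lower than both, with 13.5 CPM on average with sgNT, a control sgRNA without a target, 17.4 CPM without an sgRNA and 13.3 CPM in WT MEFs. No Eµ-*Myc* line without sg*Bcl-2* was analysed here, so the part of the lymphoma level that came from the guide cannot be told apart from the level of the lineage.

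*Myc* (Entrez gene 17869, chromosome 15 from 61985341 to 61990361) stood further apart. It had 1801, 1553, 1721, 1148, 1711 and 2602 CPM in lines 1 to 6 and 59.9, 64.3, 59.3 and 80.6 CPM in the MEFs, without overlap. Its log2 fold change was 4.52 (SE 0.20, adjusted p = 4.92e-09). Reads of the transgene and of the mouse's own gene fall on the same gene identifier and were not separated. *Mycl*, a relative of *Myc*, had between 0 and 0.379 CPM (median 0.161) in the lines and 6.52, 6.06, 5.21 and 4.5 CPM in the MEFs, and fell by 4.63. *Mycn*, another relative, was below 1 CPM in all 10 libraries and fell by 2.71.

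**Figure D1:**
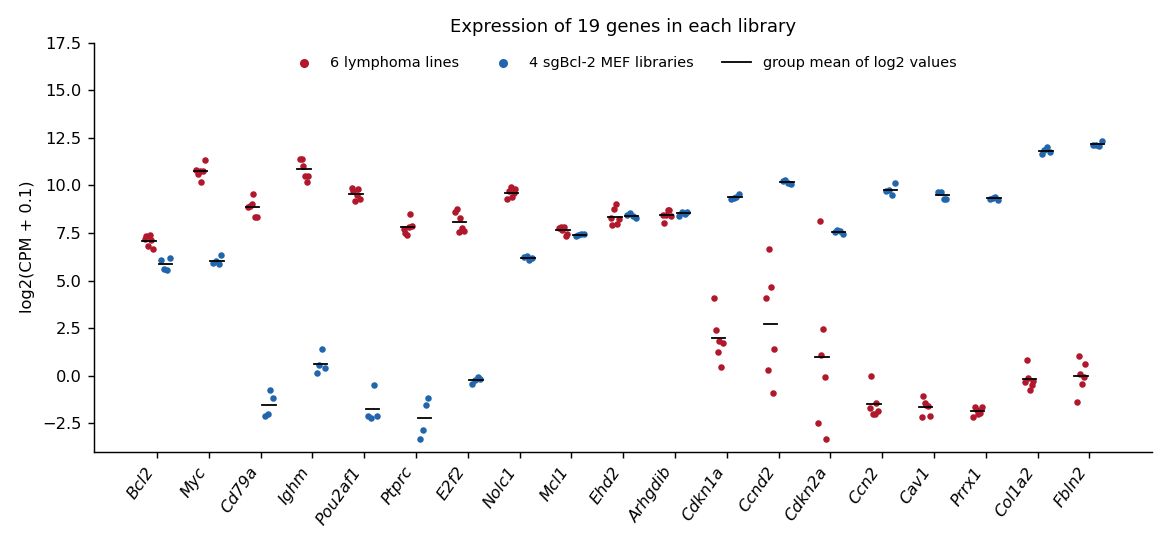
Expression of 19 genes in each library as log2(CPM + 0.1), with 6 lymphoma lines in red, 4 sg*Bcl-2* MEF libraries in blue and a bar at the mean of the log2 values of each group. The plotted values carry no TMM factor. After TMM scaling the groups differed by 1.05 units for *Bcl2* (1.23 without a factor), by 4.52 for *Myc* and by 12.17 for *Col1a2*. *Mcl1*, *Ehd2* and *Arhgdib* overlap.

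Of the 14 MYC, MAX and MXD network genes, *Myc* and *Mycl* among them, 13 were tested. Higher in the lines were 5 (38.5%, against 36.5% of all tested genes) and lower were 4 (30.8%, against 44.9%), with a median of 0.19. *Max*, the obligate partner of MYC, had between 151 and 209 CPM (median 172) in the lines and 94.7, 92.0, 89.9 and 88.0 CPM in the MEFs, and rose by 0.77 (SE 0.11). *Mlxip*, which encodes a glucose-sensing relative, rose by 1.53, and *Zbtb17*, the factor through which MYC represses genes, rose by 0.75. Among the antagonists that compete for MAX, *Mxd4* and *Mxd1* had log2 fold changes of -0.98 (SE 0.41, adjusted p = 0.0452) and -0.96 (SE 0.33, adjusted p = 0.0214). Both overlapped between the groups. The call of *Mxd4* was lost without line 3, 4, 5 or 6 or any MEF library (adjusted p between 0.0668 and 0.0970, limma), and that of *Mxd1* without MEF library 3 or 4 (0.0533 and 0.0644). With libraries summed per MEF line, which leaves 2 MEF samples, neither passed (0.143 for *Mxd4* and 0.0909 for *Mxd1*), nor with sgNT MEFs (0.161 and 0.241), and with primary tumours in place of the lines the change of *Mxd1* was -0.05 (0.829). The *Max* promoter is shown because it holds the E-box CACGTG, the letters that MYC and MAX read, in capitals.
Max promoter, chr12:76962199-76962498, minus strand: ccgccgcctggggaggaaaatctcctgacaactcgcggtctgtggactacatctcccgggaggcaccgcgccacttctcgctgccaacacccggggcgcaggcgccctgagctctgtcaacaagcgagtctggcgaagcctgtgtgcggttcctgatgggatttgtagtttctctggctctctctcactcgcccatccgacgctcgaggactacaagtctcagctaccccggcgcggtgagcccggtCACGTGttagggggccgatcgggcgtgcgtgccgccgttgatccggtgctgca
The E-box begins 3 bases before the start. Searched on both strands, it was present in the promoters of 4 of 12 network genes with an entry (33.3%), of 6 of 32 ribosome biogenesis genes (18.8%), of 2 of 33 replication and mitosis genes (6.06%), of 6 of 22 genes for D cyclins, CDK inhibitors and the p53 pathway (27.3%) and of 1236 of 10764 tested genes (11.5%). The E-box was also present in 4 of 25 nucleotide, polyamine and one-carbon synthesis genes (16.0%) and in 3 of 17 B cell receptor genes (17.65%). Of lists lower in the lines, 5 of 30 mesenchymal growth factors and receptors held it (16.67%) and 0 of 22 fibrous matrix genes. A match is a description of the letters and does not show binding.

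Genes of the B cell receptor and the B cell surface were higher in the lines with few exceptions. Of 28 listed genes 23 were tested, and 20 were higher (87.0%, against 36.5% of all tested genes), 19 of them at least 4-fold. Lower was 1 gene (4.35%, against 44.9%), and 2 did not pass. The median log2 fold change was 6.99. A gene made in a single cell type passes the filter through that cell type, and 5 listed genes did not pass. Of these *Blk*, a kinase of the B cell receptor, reached 89.5 CPM in its highest line and had no read in its lowest, *Ms4a1* reached 7.46 CPM and *Fcmr* 7.08 CPM, while *Fcer2a* and *Cd83* were below 1 CPM in all lines. *Cd79b* (Entrez gene 15985, chromosome 11 from 106311341 to 106314562) and *Cd79a*, which encode the signalling chains of the receptor, stood out by level. *Cd79b* had between 184 and 349 CPM (median 263) in the lines and 0, 0.0377, 0.242 and 0 CPM in the MEFs, and *Cd79a* had between 325 and 755 CPM (median 478) and 0.13, 0.151, 0.485 and 0.343 CPM. The lines were above the MEFs in every library for these genes. The log2 fold changes were 10.69 (SE 0.35, adjusted p = 4.13e-10) for *Cd79b*, 10.22 for *Cd79a* and 9.72 for *Cd22*, an inhibitory lectin of B cells. The gene called lower was *Cr2*, the complement receptor of mature B cells, which had between 0.0781 and 0.225 CPM (median 0.143) in the lines and 0.518, 0.866, 0.687 and 0.686 CPM in the MEFs, below 1 CPM everywhere (log2 fold change -1.82, SE 0.20, adjusted p = 8.92e-06). With the 2 primary tumours in place of the lines *Cr2* was higher, by 3.97.

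Immunoglobulin and recombination genes followed. Of 14 genes 12 were tested and 10 were higher (83.3%, against 36.5% of all tested genes), all at least 4-fold. The median was 6.15, or 6.65 with the genes at 0 in all MEF libraries set at their bound of 3 reads over the group. With the libraries summed per MEF line, and with sgNT MEFs in place of the sg*Bcl-2* MEFs, 6 of the 12 were higher. *Ighm*, the µ heavy chain, had between 1178 and 2711 CPM (median 1786) in the lines and 0.994, 1.36, 2.5 and 1.2 CPM in the MEFs, a log2 fold change of 10.06 (SE 0.29, adjusted p = 1.49e-10). *Igkc*, the κ light chain, had between 175 and 724 CPM (median 508) and 0.0864, 0.113, 0.162 and 0.171 CPM, a change of 10.77 (SE 0.35, adjusted p = 4.23e-10). *Igll1*, part of the surrogate light chain, and *Vpreb3*, a precursor B cell gene of the same family, rose by 9.04 and 8.63. Between lines *Igll1* ran from 8.52 CPM in line 5 to 377 CPM in line 2. *Rag2* and *Iglc1* did not pass, named because they are the exceptions: *Rag2*, a recombinase subunit, had 29.4, 6.93, 0.644, 0.647, 0 and 0 CPM in lines 1 to 6, and *Iglc1*, a λ light chain, had 1.5, 17.3, 0.455, 0, 292 and 0.0431 CPM. The calls of both changed with the test, with adjusted p-values of 0.0138 and 0.0165 by edgeR's quasi-likelihood test. In limma *Rag2* passed without line 5 or 6 (0.0295 and 0.0298) and *Iglc1* without line 4 or 6 (0.0408 and 0.0492). The *Vpreb3* promoter carries the octamer ATTTGCAT, which POU2F factors with POU2AF1 read in B cells, shown in capitals.
Vpreb3 promoter, chr10:75948050-75948349, plus strand: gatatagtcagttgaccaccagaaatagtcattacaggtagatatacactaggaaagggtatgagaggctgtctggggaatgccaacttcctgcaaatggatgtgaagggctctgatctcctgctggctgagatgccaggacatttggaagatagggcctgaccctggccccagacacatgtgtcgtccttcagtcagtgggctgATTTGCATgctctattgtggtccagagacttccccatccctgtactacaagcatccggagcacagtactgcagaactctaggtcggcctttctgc
The octamer begins 45 bases before the start. It was present in 1 of 7 immunoglobulin and recombination genes with an entry, in 1 of 17 B cell receptor genes (5.88%), in 0 of 20 B lineage transcription factors and in 0 of 21 pan-leukocyte genes. Of the fibrous matrix genes described below 2 of 22 held it (9.09%), and of all tested genes 183 of 10764 (1.70%).

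Of 23 B lineage transcription factors, all tested, 16 were higher (69.6%, against 36.5% of all tested genes), 15 of them at least 4-fold, and 3 were lower (13.0%, against 44.9%), with a median of 4.82. *Pou2af1* (Entrez gene 18985, chromosome 9 from 51213690 to 51240079), the co-activator of the octamer factors, had the largest rise of any gene at 100 CPM or more in the lines. It had between 587 and 922 CPM (median 778) there and 0.13, 0.113, 0.606 and 0.129 CPM in the MEFs, a log2 fold change of 11.16 (SE 0.32, adjusted p = 1.69e-10). *Myb*, a factor of blood progenitors, had between 262 and 431 CPM (median 302) and 0.13, 0.113, 0.202 and 0.129 CPM, and rose by 10.26. *Ikzf1*, the founding factor of the Ikaros family, and *Spib*, an ETS factor of B cells, rose by 10.17 and 9.96. The 3 that were lower were *Bcl6*, the germinal centre repressor, with between 0.0862 and 9.15 CPM (median 0.869) in the lines and 11.8, 9.83, 12.6 and 14.0 CPM in the MEFs (-3.76, SE 0.89, adjusted p = 0.00251), *Id3*, an inhibitor of E proteins (-1.60, SE 0.27, adjusted p = 0.000272), and *Runx1*, which is needed for blood stem cells (-1.11, SE 0.35, adjusted p = 0.0128). *Runx1* overlapped between the groups, and its call was lost with libraries summed per MEF line (adjusted p = 0.0581, limma), with sgNT MEFs in place (a change of -0.18, adjusted p = 0.74) and with primary tumours in place of the lines (0.0555). *Ebf1*, a B lineage factor named because it did not pass, was present in both cell types: it had 114, 107, 52.5, 61.2, 31.9 and 10.6 CPM in lines 1 to 6 and 18.7, 18.7, 19.6 and 20.2 CPM in the MEFs (adjusted p = 0.0823). It passed without line 6, its lowest line (adjusted p = 0.00119, limma), and against all 8 dCas9a-SAM MEF libraries (0.0082). With all samples it passed by edgeR's quasi-likelihood test (1.51, adjusted p = 0.024) and by DESeq2 (1.32, 0.00852).

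Pan-leukocyte genes had the highest median of the lists, 7.70. Of 31 tested genes 27 were higher (87.1%, against 36.5% of all tested genes), 25 at least 4-fold, and none was called lower. *Rac2*, a GTPase of blood cells, had between 167 and 619 CPM (median 285) in the lines and 0.0864, 0.0753, 0.606 and 0.0857 CPM in the MEFs, and rose by 10.09 (SE 0.49, adjusted p = 9.33e-09). *Dock2* activates RAC in lymphocytes, *Ptprc* encodes the leukocyte phosphatase CD45 and *Vav1* an exchange factor, and they rose by 10.03, 9.90 and 9.76. The 4 that did not pass were *Arhgdib*, *Itgb7*, *Evi2a* and *Dock10*. *Arhgdib*, which encodes an inhibitor of small GTPases and is usually listed with leukocyte genes, had 350.3, 264, 349, 423, 425 and 332 CPM in lines 1 to 6 and 342, 394, 357 and 389 CPM in the MEFs. Those ranges overlapped, with a log2 fold change of -0.24 (SE 0.15), and it was called lower with RLE scaling (adjusted p = 0.0186, limma) and by DESeq2 (0.00872). *Itgb7*, an integrin chain of lymphocytes, had a change of -1.71 and was called lower by DESeq2 (adjusted p = 0.0413), by limma-voom (0.0403), with RLE scaling (0.0333), without line 1 (0.00912), without line 3 (0.0430), without MEF library 2 (0.0354) and with the IgM-negative lines only (0.0298). With primary tumours in place of the lines it was higher, by 5.33. *Dock10* was below its MEF level in line 6 alone, with 46.2, 41.2, 83.6, 85.8, 59.7 and 0.259 CPM in lines 1 to 6 and 2.64, 4.74, 3.23 and 2.83 CPM in the MEFs. Without line 6 its change was 4.02 (adjusted p = 6.63e-07, limma), and with all lines it passed by edgeR's quasi-likelihood test (0.00657) and DESeq2 (0.000147).

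Of 17 tested receptors for cytokines, chemokines and sphingolipids 10 were higher (58.8%, against 36.5% of all tested genes), all at least 4-fold, and 5 were lower (29.4%, against 44.9%), with a median of 4.31. *Cxcr4*, the receptor that holds B cell precursors in the marrow, had between 54.3 and 169 CPM (median 96.5) in the lines and 0.0864, 0.113, 0.364 and 0.0857 CPM in the MEFs and rose by 8.54 (SE 0.35, adjusted p = 2.39e-09). *Tnfrsf13c*, the BAFF receptor, rose by 7.87. *Tnfrsf13b*, the receptor TACI, had between 11.0 and 23.99 CPM (median 12.6) in the lines and no read in any MEF library, at least 476-fold higher against 3 reads over the group. *S1pr4* had between 7.62 and 41.4 CPM (median 23.4) in the lines and 2 reads over all MEF libraries. The MEFs were higher for *S1pr2*, a sphingosine 1-phosphate receptor, with 92.1, 97.9, 90.3 and 93.9 CPM against between 2.43 and 20.7 CPM (median 6.02) in the lines, a change of -4.11 (SE 0.46, adjusted p = 9.96e-06). They were also higher for *Il4ra*, the interleukin 4 receptor, with 172, 134, 175 and 182 CPM against between 8.28 and 19.8 CPM (median 14.8), a change of -3.76 (SE 0.23, adjusted p = 6.17e-08). *Ifnar1*, a chain of the type I interferon receptor, fell by 1.64 in the lines. *S1pr1* overlapped, with 28.9, 3.86, 2.62, 1.54, 3.59 and 25.6 CPM in lines 1 to 6 and 19.1, 20.1, 20.1 and 24.1 CPM in the MEFs (-1.96, SE 0.80, adjusted p = 0.0428). Its call was lost without line 2, 3, 4 or 5 or without any MEF library, with adjusted p-values between 0.0742 and 0.0909 there.

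The ligand of CXCR4 ran the other way. *Cxcl12* had between 0.0406 and 0.375 CPM (median 0.124) in the lines and 432, 454, 577 and 357 CPM in the MEFs, a log2 fold change of -11.03 (SE 0.36, adjusted p = 4.18e-10), so that the receptor was found in the lymphoma lines and its ligand in the fibroblasts, without overlap in either case.

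Of 16 tested MHC genes 6 were higher (37.5%, against 36.5% of all tested genes), 2 were lower (12.5%, against 44.9%) and 8 did not pass, and the median was 1.15. By edgeR's quasi-likelihood test and by DESeq2 9 were higher and 2 lower. The direction depended on the lymphoma samples: with the IgM-positive lines only 10 were higher and 2 lower, with a median of 1.65, with the IgM-negative lines only 6 were higher and 9 lower, with a median of -0.79, and with the primary tumours in place of the lines 14 were higher and 0 lower, with a median of 4.55. Macrophage markers summed to between 38.9 and 46.4 CPM in the tumours and between 3.24 and 16.1 CPM in the lines. B lineage markers summed to between 7240 and 7834 CPM in the tumours and between 2128 and 3552 CPM in the lines. Whether other cells of the tumours added to the MHC genes was not tested. *Psmb8* and *Psmb9*, subunits of the immunoproteasome, had between 104 and 175 CPM (median 137) and between 16.2 and 56.2 CPM (median 30.9) in the lines and between 1.12 and 2.83 CPM and between 0.259 and 0.791 CPM in the MEFs, with changes of 5.92 (SE 0.23, adjusted p = 1.66e-09) and 5.57 (SE 0.39, adjusted p = 1.95e-07). *H2-Ob* and *H2-Oa*, which encode a modulator of peptide loading, were found in the lines, with between 9.4 and 45.6 CPM (median 30.5) and between 0.938 and 3.53 CPM (median 2.49). *H2-Ob* had 2 reads over the 4 MEF libraries, and *H2-Oa* had none, at least 72.4-fold higher against 3 reads over the group. *B2m*, the invariant chain of class I, and *Tapbp*, which helps load it, fell by 0.88 and by 1.36. With primary tumours in place of the lines neither passed, with changes of -0.02 and -0.05 (adjusted p = 0.905 and 0.704, limma), nor did *B2m* with sgNT MEFs (-0.65, 0.0553). The class II genes *Cd74* and *H2-Eb1* did not pass in limma, but did by edgeR's quasi-likelihood test (adjusted p = 0.00966 and 0.0228) and DESeq2 (9.52e-08 and 0.00019), and are described with the differences among lines below.

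**Figure D2:**
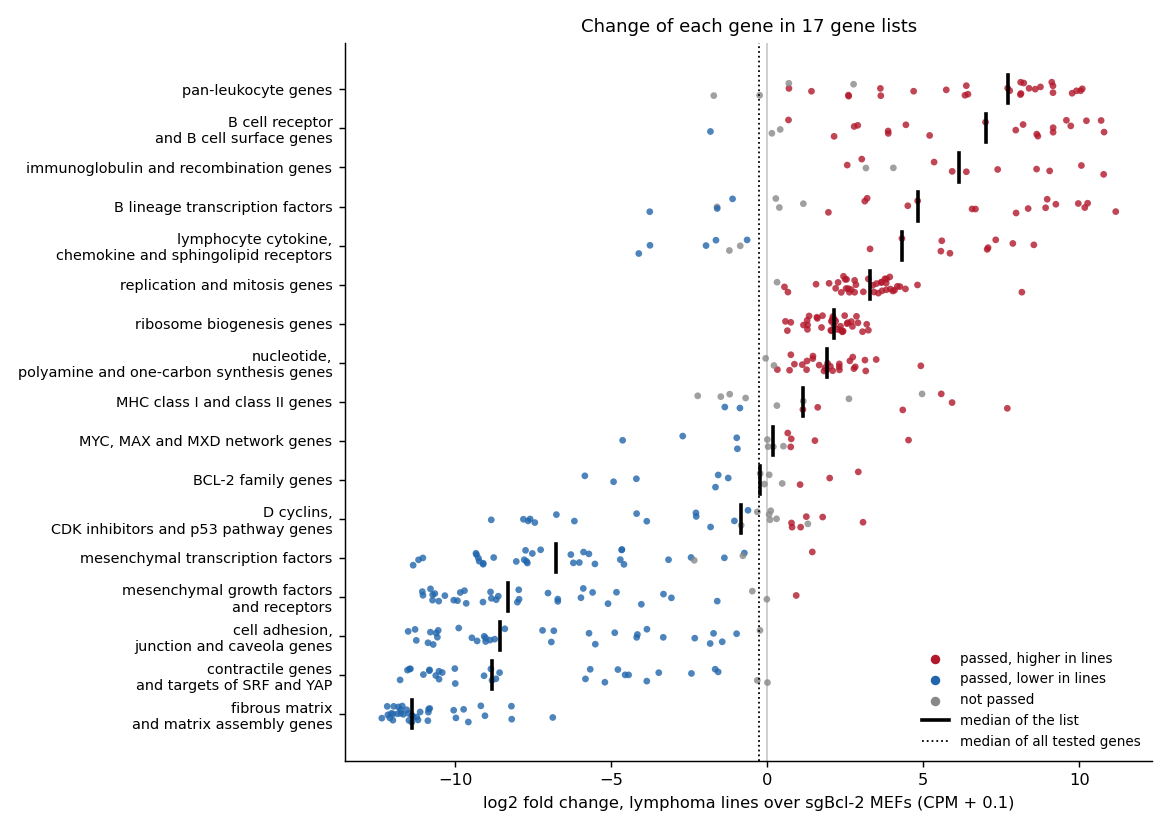
Log2 fold change of each tested gene in 17 lists, lymphoma lines over sg*Bcl-2* MEFs, with genes higher in the lines in red, genes lower in blue and genes that did not pass in grey. The thick bar is the median of a list, from -11.38 for fibrous matrix genes to 7.70 for pan-leukocyte genes, and the dotted line is the median of all tested genes, -0.26.

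Genes of ribosome biogenesis, nucleotide synthesis, replication and mitosis were higher with few exceptions. Their medians were smaller than those of the B lineage and pan-leukocyte lists. All 37 ribosome biogenesis genes were tested and all 37 were higher without overlap between the groups, with a median of 2.14 and a range from 0.58 to 3.24. Of all tested genes 36.5% were higher and 75.3% did not overlap. At least 4-fold higher were 25 of the 37, and 10.5% of all tested genes. *Nolc1*, a nucleolar chaperone, had between 633 and 956 CPM (median 805) in the lines and 76.1, 77.6, 68.5 and 73.3 CPM in the MEFs, a log2 fold change of 3.24 (SE 0.12, adjusted p = 1.21e-09). *Polr1b*, a subunit of RNA polymerase I, had between 169 and 272 CPM (median 197) and 18.3, 20.4, 19.7 and 19.7 CPM, a change of 3.19 (SE 0.14, adjusted p = 5.65e-09). *Rrp1b* and *Gar1*, of ribosomal RNA processing, rose by 3.05 and 2.91. Of 29 tested genes for nucleotide, polyamine and one-carbon synthesis 27 were higher (93.1%, against 36.5% of all tested genes), 13 at least 4-fold. Their median was 1.91. *Shmt1*, which passes a carbon from serine to folate, had the largest rise, with between 194 and 277 CPM (median 217) in the lines and 6.83, 6.74, 5.33 and 6.82 CPM in the MEFs (4.92, SE 0.13, adjusted p = 7.94e-11). *Ppat* and *Pfas*, enzymes of purine synthesis, rose by 3.49 and 3.15. The exceptions were *Psat1* and *Psph*, both of serine synthesis, with log2 fold changes of -0.05 (SE 0.20, adjusted p = 0.817) and 0.21 (SE 0.26, adjusted p = 0.456).

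Of 40 replication and mitosis genes 39 were higher (97.5%, against 36.5% of all tested genes), 35 at least 4-fold, with a median of 3.31. *E2f2*, a factor of S phase entry, had between 188 and 435 CPM (median 263) in the lines and 0.648, 0.753, 0.848 and 0.772 CPM in the MEFs, a log2 fold change of 8.16 (SE 0.24, adjusted p = 1.66e-10). *Mybl2*, an activator of mitotic genes, followed with a change of 4.81 (SE 0.15, adjusted p = 3.45e-10). *Mcm10*, an initiation factor of replication, and *Mcm5*, a subunit of the replication helicase, rose by 4.43 and 4.25. *Ccne1*, a cyclin of the G1 to S step, did not pass, with between 26.5 and 81.7 CPM (median 44.5) in the lines and 32.4, 37.3, 33.0 and 26.6 CPM in the MEFs.

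Of 27 genes for D cyclins, CDK inhibitors and the p53 pathway, which hold both drivers of and brakes on the cycle, 14 (51.9%, against 44.9% of all tested genes) were lower and 6 (22.2%, against 36.5%) were higher, with a median of -0.84. At least 4-fold lower were 11 of the 27, and 28.9% of all tested genes. *Cdkn2b*, which encodes the CDK4 and CDK6 inhibitor p15, had between 0.0406 and 2.25 CPM (median 0.0889) in the lines and 103, 121, 123 and 96.2 CPM in the MEFs, a log2 fold change of -8.84 (SE 0.70, adjusted p = 5.74e-07). *Cdkn1a*, which encodes p21, had between 1.29 and 16.9 CPM (median 3.29) and 619, 643, 665 and 746 CPM, a change of -7.60 (SE 0.55, adjusted p = 2.67e-07). *Plk2*, a p53 target, had 34.3, 30.6, 0.531, 0.498, 0.0781 and 0 CPM in lines 1 to 6 and 215.998, 244, 261 and 432 CPM in the MEFs (-7.81, SE 1.65, adjusted p = 0.00124). *Ccnd2*, a D cyclin, had 17.1, 1.12, 102, 25.0, 0.43 and 2.54 CPM in lines 1 to 6 against 1211, 1262, 1137 and 1067 CPM in the MEFs (-7.66, SE 1.32, adjusted p = 0.000289). No line reached the MEFs for any of these genes. The largest rises were in *Rbl1*, the RB relative p107, with between 84.4 and 128 CPM (median 104) in the lines and 11.1, 12.3, 11.2 and 8.87 CPM in the MEFs (3.07, SE 0.12, adjusted p = 2.12e-09), and in *Mdm4*, an inhibitor of p53, at 1.78. *Sesn1*, a stress gene, and *Rb1*, the retinoblastoma gene, rose by 1.25 and 1.07.

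In the BCL-2 family, 13 of 19 genes were tested. Higher were 3 (23.1%, against 36.5% of all tested genes) and lower were 6 (46.2%, against 44.9%), with a median of -0.23, near that of all genes. The pro-survival members moved apart. While *Bcl2* was higher, *Bcl2l1*, which encodes BCL-XL, had between 1.97 and 19.7 CPM (median 8.64) in the lines and 117, 122, 101 and 134 CPM in the MEFs, a change of -4.19 (SE 0.54, adjusted p = 2.95e-05). *Bcl2l2*, which encodes BCL-W, had between 0.345 and 22.8 CPM (median 4.46) and 91.8, 87.8, 86.6 and 91.1 CPM, a change of -4.92 (SE 1.16, adjusted p = 0.00248). *Mcl1*, the other main survival gene, named although it did not pass, had between 165 and 227 CPM (median 207) in the lines and 162, 166, 172 and 174 CPM in the MEFs, with a change of 0.06 (SE 0.09). The initiators *Bmf* and *Bcl2l11*, which encodes BIM, rose by 2.92 (SE 0.38, adjusted p = 3.38e-05) and 2.00 (SE 0.13, adjusted p = 1.24e-07), each without overlap. *Bok*, an effector relative, and *Bad*, an initiator, fell by 5.84 and by 1.66. The 3 listed genes of the A1 group and *Bcl2l10*, *Bik* and *Hrk* did not pass the expression filter.

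Matrix genes had the largest median change of the 17 lists. Of 38 listed genes 37 were autosomal and tested, and all 37 were lower in the lines by more than 4-fold, with a median of -11.38 and a range from -12.35 to -6.87. Of all tested genes 28.9% were lower by at least 4-fold. *Fbln2* (Entrez gene 14115, chromosome 6 from 91212460 to 91272540), a linker of elastic fibres, had the largest fall of any gene at 100 CPM or more, with between 0.284 and 1.95 CPM (median 0.904) in the lines and 4413, 4475, 4257 and 5107 CPM in the MEFs, a log2 fold change of -12.35 (SE 0.38, adjusted p = 2.51e-10). *Col1a2*, a chain of type I collagen, had between 0.498 and 1.69 CPM (median 0.711) and 3251, 3750, 4087 and 3477 CPM, a change of -12.17 (SE 0.24, adjusted p = 2.63e-11). *Lox*, which cross-links collagen, had between 0.446 and 1.42 CPM (median 0.884) and 3564, 3541, 4014 and 4051 CPM, a change of -12.09. *Postn*, a matrix protein gene of developing tissue, had 888, 1091, 1629 and 862 CPM in the MEFs, at most 0.45 CPM in the lines, and fell by 12.15. Matrix genes also filled the list of the 10 largest falls over all genes: it held *Fbln2*, *Col1a2*, *Postn*, *Lox*, *Fn1*, *Col3a1*, *Col1a1* and *Col5a1*, and besides them *Emp1*, a membrane protein gene (-12.05), and *Ccl2*, a chemokine that attracts monocytes (-11.86).

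Adhesion, junction and caveola genes were lower for 33 of 34 tested genes (97.1%, against 44.9% of all tested genes), 29 at least 4-fold. Their median was -8.57. The genes of the caveola, a flask-shaped pit of the membrane, were *Cav1* with between 0.122 and 0.375 CPM (median 0.242) in the lines and 794, 807, 628 and 633 CPM in the MEFs (-11.28, SE 0.23, adjusted p = 2.87e-11), *Cavin1* at -11.24 and *Cavin2* at -11.50. *Zyx*, of focal adhesions, was at -10.87. The gene that did not pass was also a caveola gene. *Ehd2* (Entrez gene 259300, chromosome 7 from 15946963 to 15967535), whose protein sits at the neck of caveolae, had 315, 241, 428, 512, 253 and 297 CPM in lines 1 to 6 and 353, 372, 335 and 308 CPM in the MEFs. The groups overlapped, with a log2 fold change of -0.23 (SE 0.21, adjusted p = 0.322). It was called lower with the IgM-negative lines only (-0.40, adjusted p = 0.00562, limma) and with primary tumours in place of the lines (-2.08, adjusted p = 1.38e-06). In the 2 primary tumours *Ehd2* had 90.9 CPM on average, and in the 2 preB-ALL libraries 225 CPM.

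Contractile genes and targets of SRF and YAP were lower for 29 of 31 genes (93.5%, against 44.9% of all tested genes), 27 at least 4-fold. Their median was -8.82. *Axl*, a receptor kinase and YAP target, had between 0.117 and 0.303 CPM (median 0.233) in the lines and 1070, 1011, 864 and 985 CPM in the MEFs, a change of -11.76 (SE 0.21, adjusted p = 2.54e-11). *Cald1*, an actin-binding protein gene, was at -11.52. *Ccn1* and *Ccn2*, secreted proteins and classical YAP targets, had between 0.117 and 0.562 CPM (median 0.181) and between 0.149 and 0.9 CPM (median 0.188) in the lines and 674, 672, 787 and 1113 CPM and 835, 850.4, 719 and 1137 CPM in the MEFs, with changes of -11.46 and -11.43. The 2 exceptions were *Srf*, the factor itself, with between 71.1 and 107 CPM (median 88.2) in the lines and 93.4, 88.0, 84.3 and 123 CPM in the MEFs (-0.32, SE 0.15, adjusted p = 0.0657), and *Tagln2*, an actin-binding protein gene (0.01, SE 0.32, adjusted p = 0.986). *Srf* passed as a lower gene with RLE scaling (adjusted p = 0.00739, limma), by DESeq2 (0.00108), without line 1 (0.0364), without MEF library 3 (0.0487) and against all 8 dCas9a-SAM MEF libraries (0.00692). Promoters of *Ccn1* and *Axl* are shown because they hold the letters GGAATG, read by the TEAD partners of YAP, in capitals on either strand.
Ccn1 promoter, chr3:145649936-145650235, minus strand: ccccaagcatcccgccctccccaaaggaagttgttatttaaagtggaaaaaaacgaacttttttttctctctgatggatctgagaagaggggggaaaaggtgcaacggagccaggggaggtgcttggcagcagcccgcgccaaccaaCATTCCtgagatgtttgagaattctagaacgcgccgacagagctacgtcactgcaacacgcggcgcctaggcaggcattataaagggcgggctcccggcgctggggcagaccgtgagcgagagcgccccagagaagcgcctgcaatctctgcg
Axl promoter, chr7:25788684-25788983, minus strand: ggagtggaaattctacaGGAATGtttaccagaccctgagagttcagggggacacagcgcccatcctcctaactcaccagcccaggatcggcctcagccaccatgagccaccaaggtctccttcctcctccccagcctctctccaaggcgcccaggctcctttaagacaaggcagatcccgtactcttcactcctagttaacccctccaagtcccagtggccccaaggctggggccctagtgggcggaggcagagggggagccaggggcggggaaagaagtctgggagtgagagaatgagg
The letters begin 103 bases before the start in *Ccn1* and 233 bases before it in *Axl*. They were present in 16 of 27 genes of this list with an entry (59.3%) and in 1560 of 10764 tested genes (14.5%). The list holds known YAP targets by its making, so this share is no independent result, and the AP-1 letters TGANTCA were present in 2 of the 27 genes (7.41%) and in 679 of all 10764 (6.31%).

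Of 34 tested mesenchymal transcription factors 31 were lower (91.2%, against 44.9% of all tested genes), 29 at least 4-fold, and 1 was higher. The median was -6.77, or -7.47 with genes at 0 in all lines at their bound. *Prrx1*, a homeobox factor of limb and skin mesenchyme, had between 0.122 and 0.225 CPM (median 0.173) in the lines and 621, 649.8, 681 and 611 CPM in the MEFs, a change of -11.34 (SE 0.16, adjusted p = 2.48e-11). *Hmga2*, an embryonic chromatin protein, was at -11.17, and *Twist2*, a factor of dermal fibroblasts, at -11.03. *Osr1* had 58.9, 58.5, 69.7 and 65.9 CPM in the MEFs and 1 read over all lines. *Foxp1* was the gene that rose, with between 144 and 315 CPM (median 171) in the lines and 52.0, 51.2, 62.9 and 80.4 CPM in the MEFs (1.44, SE 0.22, adjusted p = 0.00011); it also acts in B cells. *Ebf3* and *Klf2* did not pass. *Ebf3*, a relative of *Ebf1*, had 0.77, 17.7, 5, 0.0498, 71.3 and 88.5 CPM in lines 1 to 6 and 24.5, 28.7, 33.5 and 30.8 CPM in the MEFs, above the MEFs in lines 5 and 6 and below them in the other lines.

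Growth factors and receptors were lower for 33 of 36 genes (91.7%, against 44.9% of all tested genes), 32 at least 4-fold, with a median of -8.31. *Fgfr1*, a receptor for fibroblast growth factors, had between 0 and 0.337 CPM (median 0.243) in the lines and 496, 487, 484 and 581 CPM in the MEFs, a change of -11.05 (SE 0.39, adjusted p = 7.19e-10). *Gas6*, the ligand of AXL, was at -10.79, and *Fst*, which binds activin, at -10.72. *Tgfb1* was higher by 0.93, with 121, 147, 72.0, 109, 44.8 and 33.2 CPM in lines 1 to 6 and 31.4, 36.8, 31.4 and 45.2 CPM in the MEFs, but the ranges overlapped (adjusted p = 0.0447). Its call was lost without line 1, 2, 3 or 4 or any MEF library, with adjusted p-values between 0.0508 and 0.103. *Tgfb2* and *Tgfbr1*, a ligand and a receptor chain of the same pathway, did not pass.

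Some gene families hold a member used mainly by blood cells beside one used more widely. The 24 pairs listed here name such a gene first in most cases, but *Ezh2*, *Lmnb1*, *Ccnd3* and *Pip4k2a* are also used by many other cells. The first gene was higher in the lines for 21 pairs, lower for 1 and did not pass for 2, while its paralogue was lower for 17, higher for 2 and did not pass for 5. The pairs were chosen with results of these data known, so their counts are a description. In 9 pairs both genes moved by at least 4-fold in opposite directions. *Dock2* had between 177 and 271 CPM (median 230.2) in the lines and between 0 and 0.364 CPM in the MEFs, and *Dock1* had between 0 and 0.0758 CPM (median 0.0383) and between 112 and 124 CPM, with changes of 10.03 and -9.96. *Fermt3* and *Fermt2*, the kindlins that activate integrins, changed by 8.11 and -10.79. *Hcls1* and *Cttn*, of the cortactin family, changed by 8.75 and -10.69. The WAVE complex, which builds branched actin, changed in 2 subunits, with 8.39 for *Nckap1l* and -9.12 for *Nckap1*, and 8.22 for *Cyfip2* and -3.39 for *Cyfip1*. In the nucleus, the lamin *Lmnb1* changed by 4.30 and *Lmna* by -8.71, *Ikzf1* by 10.17 and *Ikzf2* by -6.29, and *Runx3* by 3.12 and *Runx2* by -7.71. The integrin chains *Itgb2* and *Itgb1* changed by 4.69 and -3.33.

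In most other pairs the first gene rose while the paralogue stayed within 4-fold. *Rac2* rose by 10.09 and *Rac1*, with between 295 and 471 CPM (median 321) in the lines and 509, 519, 474 and 464 CPM in the MEFs, fell by 0.71 with overlapping ranges. *Ptpn6* and *Ptpn11*, SH2 phosphatases, changed by 6.99 and -1.48, and *Inpp5d* and *Inppl1*, inositol phosphatases, by 9.72 and -0.59. *Inppl1* lost its call without line 3, 4, 5 or 6 or any MEF library (adjusted p between 0.0668 and 0.1002). The paralogue did not pass for *Coro1a* and *Coro1c* (8.58 and -0.29), *Plcg2* and *Plcg1* (5.20 and -0.64), *Pik3cd* and *Pik3ca* (5.22 and 0.08), *Fmnl1* and *Fmnl2* (8.30 and -1.05) and *Ezh2* and *Ezh1* (3.79 and 0.25). Without line 2 *Coro1c* passed as lower and *Ezh1* as higher (adjusted p = 0.00289 and 0.0272, limma). Both members rose for *Pou2f2* and *Pou2f1*, the octamer factors (6.67 and 3.17), and for *Vav1* and *Vav2* (9.76 and 0.59). *Prkcb* and *Prkca*, protein kinases C, changed by 3.85 and -1.73, but *Prkcb* was below the MEF level in line 5 and its call was lost without any other line or any MEF library (adjusted p up to 0.0908). The pairs that did not follow were *Arhgdib* and *Arhgdia* (-0.24 and -0.77), *Evl* and *Enah* (-0.58 and -9.68) and the cyclins *Ccnd3* and *Ccnd1* (-1.05 and -2.28), while *Pip4k2a* and *Pip4k2c* changed by less than 4-fold in opposite directions (0.68 and -1.80). *Ccnd3* lost its call without line 3, 4, 5 or 6 or any MEF library (adjusted p between 0.0571 and 0.0671).

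**Figure D3:**
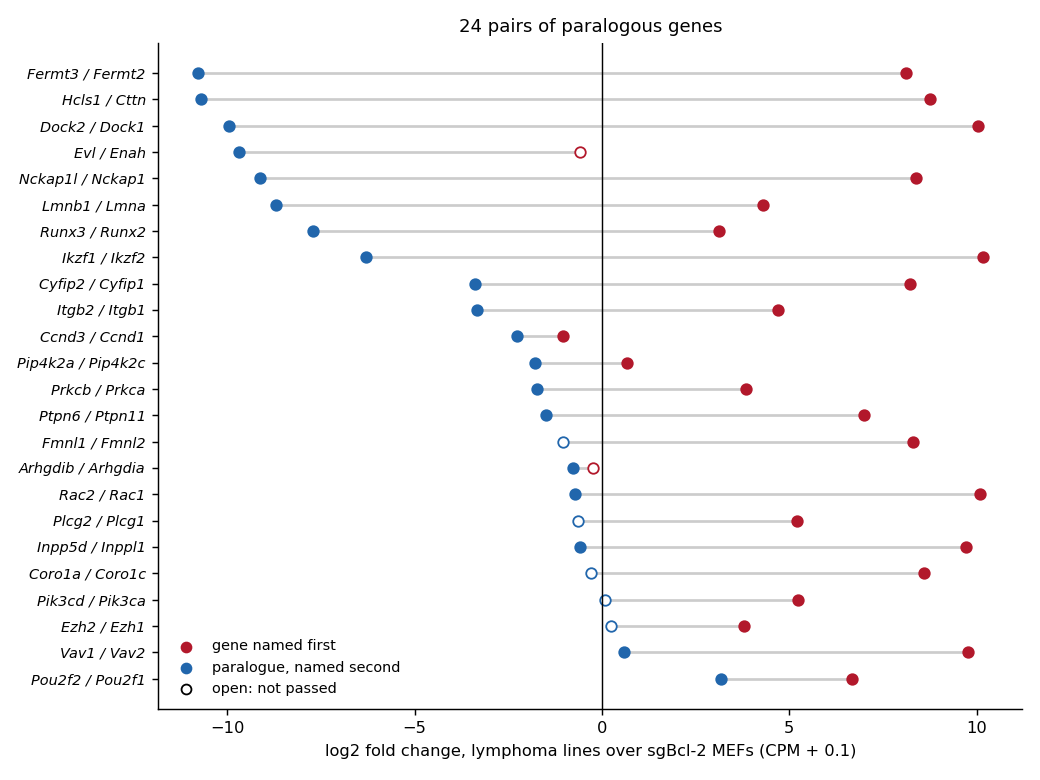
Log2 fold change of both members of 24 paralogue pairs, lymphoma lines over sg*Bcl-2* MEFs, with the gene named first in red, its paralogue in blue and open circles for genes that did not pass. In 9 pairs the points lie at least 2 units to either side of 0, as for *Dock2* at 10.03 and *Dock1* at -9.96.

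Over all genes, the largest rises among genes at 100 CPM or more in the lines included those of *Pou2af1*, *Cecr2*, *Igkc*, *Cd79b*, *Wdfy4*, *Lrmp*, *Nup210*, *Mzb1* and *Myb*, between 10.26 and 11.16. *Cecr2*, a bromodomain gene, had between 195 and 575 CPM (median 303) in the lines and 0, 0.0377, 0.162 and 0 CPM in the MEFs. *Nup210*, a membrane protein gene of the nuclear pore, had between 365 and 735 CPM (median 455) and 0.302, 0.113, 0.162 and 0.214 CPM, although nuclear pores are found in every cell. *Wdfy4*, *Lrmp* and *Mzb1*, known from immune cells, rose by 10.62, 10.61 and 10.29. At the other end, the 5 most abundant genes that did not pass were *Eef1a1*, *Ldha*, *Eno1b*, *Rplp1* and *Cfl1*. *Ldha*, a glycolytic enzyme gene, had between 1608 and 3569 CPM (median 2631) in the lines and 2998, 2926, 2750 and 2745 CPM in the MEFs (-0.38, SE 0.22, adjusted p = 0.13). *Ldha* was called lower by DESeq2 (adjusted p = 0.0203), with RLE scaling (0.0320, limma) and with the IgM-positive lines only (0.0386, limma). With primary tumours in place of the lines its change was -1.15 (3.10e-05, limma). *Eno1b* shares nearly all its sequence with *Eno1*, and the split of reads between them is uncertain. *Eef1a1*, *Rplp1* and *Cfl1*, of translation and of actin turnover, had mean log2 differences of 0.38, 0.26 and 0.19 after TMM scaling, and all 3 passed without a scaling factor. Without line 2 *Eef1a1* and *Rplp1* passed, with differences of 0.51 and 0.35 (adjusted p = 0.000977 and 0.00938, limma). Against all 8 dCas9a-SAM MEF libraries both passed as well (0.000795 and 0.00434, limma). *Eef1a1* also passed by edgeR's quasi-likelihood test (adjusted p = 0.0272), by limma-voom (0.0245) and with 0.5 or 1 CPM added (0.0362 and 0.0343, limma).

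The lymphoma lines differed among themselves far more than the MEF libraries did. Of the 7007 genes above, 312 had an SD over 1 on the log2 scale among the 6 lines and 2 among the 4 MEF libraries. The MEF libraries came from 2 MEF lines, so their spread is partly that of libraries of the same line. The 5 list genes with the largest SD among lines, of those reaching 50 CPM in a line, were *Cd74*, *H2-Eb1*, *Dntt*, *Iglc1* and *Cdkn2a*, chosen by their spread after it was seen. *Cd74*, the invariant chain of class II, had 435, 808, 0.531, 326, 0.391 and 0.474 CPM in lines 1 to 6 and between 0.226 and 0.727 CPM in the MEFs, so lines 1, 2 and 4 carried it and lines 3, 5 and 6 were at the MEF level. *H2-Eb1*, a class II chain, followed the same lines with 148, 218, 0.114, 126, 0.195 and 0.0862 CPM. *Cd74* passed in limma without line 3, 5 or 6 (adjusted p = 0.0447, 0.0394 and 0.0421). *Dntt*, the polymerase that adds bases at immunoglobulin joints, had 0.203, 0.262, 833, 173, 4.77 and 6.42 CPM, with its high values in lines 3 and 4. It passed (5.92, SE 2.13, adjusted p = 0.0245), but not without MEF library 1, 2 or 4 (adjusted p between 0.0501 and 0.0565, limma). With libraries summed per MEF line *Dntt* did not pass (0.122, limma), nor with sgNT MEFs (0.112, limma) or by limma-voom (0.0707). The call was also lost with 0.5 or 1 CPM added (0.0523 and 0.0698, limma). *Cdkn2a*, which encodes the tumour suppressors p16 and ARF, had 0.0811, 276, 2.01, 5.43, 0.859 and 0 CPM in lines 1 to 6 and 185, 200.1, 194 and 177 CPM in the MEFs. Line 2 was above every MEF library and the other 5 lines were at most at 5.43 CPM. The log2 fold change of *Cdkn2a* was -6.75 (SE 1.84, adjusted p = 0.00602) in limma and -2.26 (adjusted p = 0.25) in edgeR's quasi-likelihood test. The lines disagree on each of these 5 genes, so a mean over lines describes none of them.

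**Figure D4:**
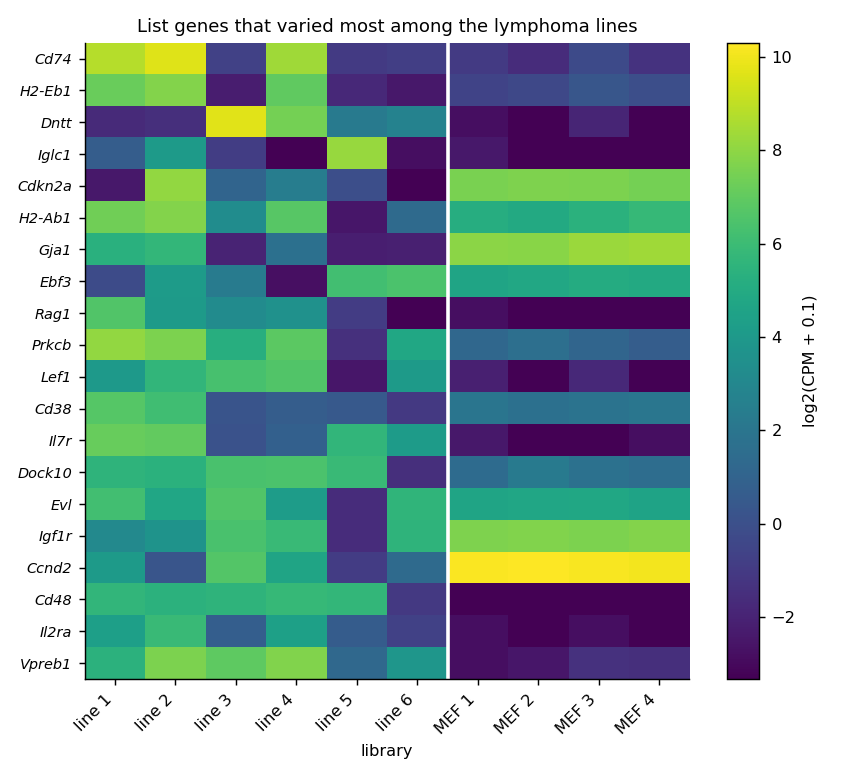
The 20 list genes with the largest SD among the lymphoma lines, as log2(CPM + 0.1) in each of the 6 lines and 4 MEF libraries, from dark (low) to yellow (high). *Cd74* and *H2-Eb1* are high in lines 1, 2 and 4, *Dntt* in lines 3 and 4, and *Cdkn2a* in line 2, while the MEF columns are alike.

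A part of the spread among lines ran along whole chromosomes. For each line, the log2 level of every gene at 10 CPM or more was compared with the median of the other 5 lines, and the median of these differences was taken over the genes of each autosome, between 219 and 730 genes. Of 114 such values for the lines 12 were 0.25 or more from 0, in 5 of the 6 lines, and of 76 values for the MEF libraries 0 were, with a range from -0.04 to 0.04. In line 5 the 481 genes of chromosome 1, where *Bcl2* lies, had a median of 0.62, and 93.6% of them were above the other lines. In lines 3 and 4 chromosome 15, where *Myc* lies, had medians of 0.49 and 0.50 over 339 genes. Line 3 also stood high on chromosome 19 (0.57) and chromosome 18 (0.45), line 4 on chromosome 18 (0.63) and chromosome 10 (0.37), and line 2 on chromosomes 5 (0.48) and 16 (0.36). Chromosome 12 was higher in line 6 (0.30) and lower in lines 2 and 5 (-0.51 and -0.37). The level of *Bcl2* and *Myc* did not stand out with their chromosomes. *Bcl2* had 138.1 CPM in line 5, within the range of the other lines, and *Myc* had 1721 CPM in line 3 and 1148 CPM in line 4, the latter the lowest of the 6. Reads of *Myc* include those of the transgene, and *Bcl2* was targeted by the guide. These levels therefore cannot show whether the shift of a chromosome reached these genes. DNA copy number was not measured here.

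**Figure D5:**
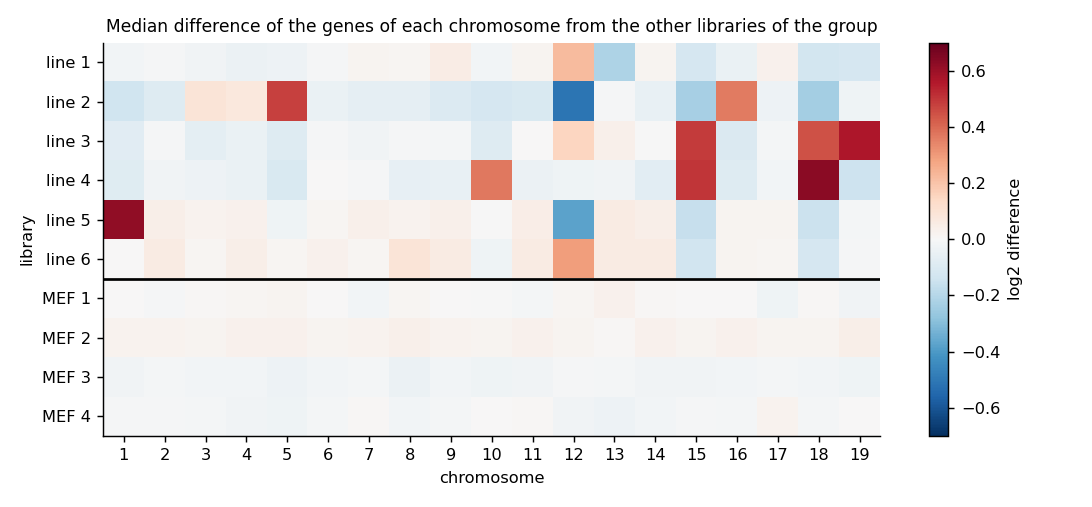
Median log2 difference of the genes of each autosome from the median of the other libraries of the same group, for 6 lymphoma lines and 4 sg*Bcl-2* MEF libraries, with red for higher and blue for lower. The strongest cells are chromosome 18 in line 4 (0.63) and chromosome 1 in line 5 (0.62), and all MEF cells lie between -0.04 and 0.04.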

How the data were processed

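RNA was sequenced from TruSeq RNA v2 libraries. The authors aligned reads to GRCm38 (mm10) with Rsubread, counted them per gene and deposited CPM for 25869 genes in 20 libraries. Strand use in counting is not given in the sources used here. All CPM values were whole multiples of 1 read (100% within 0.01 reads), so reads were recovered. Genes were named with the NCBI gene table (25242 matched), and 1279 genes on X or Y and 633 without a known chromosome were left out, with 3.19 to 5.95% of reads. Genes were filtered with filterByExpr and scaled with TMM (edgeR 4.0.16). The 6 lines and 4 MEF libraries were compared on log2(CPM + 0.1) with limma 3.58.1, variance trend and Benjamini-Hochberg adjustment at 0.05 in R 4.3.3. Fold changes are differences of mean log2 values. The added 0.1 CPM shrinks those of low genes, and where libraries of a group differ widely they can exceed the ratio of group means. The fit was tested on simulated data. On the recovered reads edgeR's quasi-likelihood test called 11142 genes, and DESeq2 1.42.0 and limma-voom were also run.

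The members and gene lists were chosen with earlier results of these data known. Named genes were up to 4 called genes without overlap with the largest change in each list, up to 4 called in the opposite direction, the 10 largest changes each way at 100 CPM or more, the 5 most abundant genes that did not pass, *Bcl2*, *Myc* and the paralogue pairs. Others, such as exceptions in a list and genes that vary among lines, were chosen after their values were seen. Some genes that this rule would name are not reported here. Motif letters were searched on both strands. Counting error aside, precision is limited by 6 lines and 2 MEF lines.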

Additional observations from a re-analysis of the deposited data

Results flagged for a closer look

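In each group the highest or lowest library was compared with its nearest neighbour by Dixon's ratio for the genes named above. Groups that stayed under 1 CPM were not tested. Of 271 groups of values 32 held a library apart. The ratio was taken on CPM and not on the log2 scale. Its chance rate of about 1 in 20 holds for normally distributed values and is not applied here, because CPM of lines that differ widely are skewed. A library may thus stand apart because of the scale. Genes such as *Cdkn2a*, *Dntt*, *Iglc1* and *Rag2* were also named because a line stood apart. Line 2 was named most often, 10 times. Line 2 was higher than the other lines for *Bcl6* (9.15 CPM, next 1.67 CPM), *Bok* (3.6 CPM, next 0.846 CPM), *Cdkn2a* (276 CPM, next 5.43 CPM), *Cdkn2b* (2.25 CPM, next 0.114 CPM), *Col1a2* (1.69 CPM, next 0.834 CPM), *Coro1c* (243 CPM, next 139.9 CPM), *Ifnar1* (53.5 CPM, next 36.3 CPM), *Lrmp* (1463 CPM, next 714 CPM), *Rac1* (471 CPM, next 347 CPM) and *S1pr2* (20.7 CPM, next 7.13 CPM). Line 3 stood above the others for *Bad* (19.8 CPM, next 13.3 CPM), *Ccnd2* (102 CPM, next 25.0 CPM), *Cfl1* (2136 CPM, next 1519 CPM), *Dntt* (833 CPM, next 173 CPM) and *Psat1* (586 CPM, next 377 CPM). Line 1 was high for *Cdkn1a* (16.9 CPM, next 5.21 CPM), *Rag2* (29.4 CPM, next 6.93 CPM) and *Vav2* (65.5 CPM, next 49.96 CPM). Line 5 was high for *Iglc1* (292 CPM, next 17.3 CPM) and *Ptprc* (362 CPM, next 236 CPM). Line 6 was high for *Nckap1* (3.71 CPM, next 0.72 CPM). A low value among the lines was that of line 1 for *Zbtb17* (35.97 CPM, next 42.1 CPM). MEF library 1 was high for *Gar1* (15.8 CPM, next 13.0 CPM). MEF library 1 was low for *Cttn* (459 CPM, next 474 CPM). MEF library 3 was high for *Cyfip2* (3.6 CPM, next 2.45 CPM) and *Fmnl2* (37.7 CPM, next 28.8 CPM). MEF library 3 was low for *Psat1* (294 CPM, next 327 CPM), *Shmt1* (5.33 CPM, next 6.74 CPM) and *Twist2* (244 CPM, next 299 CPM). MEF library 4 was high for *Ccl2* (989 CPM, next 769 CPM) and *Fgfr1* (581 CPM, next 496 CPM). MEF library 4 was low for *Coro1a* (0.729 CPM, next 0.979 CPM).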

How the results depend on the processing

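At the same threshold, between 10278 genes (libraries summed per MEF line) and 13068 genes (no filter) passed in the alternatives, and 4-fold lower genes numbered from 2972 (1 CPM added) to 4474 (IgM-negative lines only). Leaving out 1 library gave 10928 to 11399 genes. Of 170 named genes tested, 124 kept their side of the threshold in every alternative, and no called value of theirs changed sign. Of the values of the others, 108 lost the call, 100 gained it and 12 changed sign with a call in at least 1 of the 2 fits compared. Sign changes without a call are not counted here. With primary tumours in place of the lines the log2 fold change was 0.66 for *Arhgdib*, 3.97 for *Cr2*, 0.94 for *Evl*, 5.33 for *Itgb7*, 2.75 for *Klf2*, -0.22 for *Pik3ca* and 2.29 for *S1pr1*. With the IgM-negative lines only it was 1.36 for *Ebf3*, 0.29 for *Eno1b*, 0.92 for *Fmnl2*, -1.97 for *H2-Eb1* and 1.51 for *Tgfb2*. The cause was not tested. The larger share of the 50 most abundant genes lost its call when libraries were summed per MEF line (a difference of 2.12 percentage points), and with single libraries left out the difference was between 1.85 and 2.59. The number of genes at 1 CPM or more and the mitochondrial share also lost their calls after adjustment with libraries summed per MEF line. Leaving out mitochondrial genes, an alternative chosen after seeing the data, gave 11346 genes. No paired analysis was possible because no replicate number pairs a lymphoma line with a MEF library. Lineage, *Myc* transgene and culture cannot be told apart, RNA per cell was not measured, and genes with a few reads in a group have folds that follow the added 0.1 CPM.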
